A study of Drosophila melanogaster with 30 samples.

Results

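Chromatin loops were counted in Drosophila melanogaster embryos in which the protein GAGA-associated factor (GAF) had been depleted. The results below cover every loop of the authors' embryo loop list. With the 209 loops listed for wing discs these make up the 395 loops of the series, and 8 of the series' 30 samples are used for them. Values from 6 wing disc libraries are set beside them at the end. The depleted group held 4 libraries of the genotype labelled GAF(deGradFP), written GAF-deGradFP here. The comparison group held 4 libraries labelled sfGFP-GAF(N) control, in which GAF carries a GFP tag. Embryos of both groups were 2 to 2.5 h old. The groups were of different genotypes, so loss of GAF cannot be told apart here from other differences between the lines. Values given below as after depletion are those of GAF-deGradFP embryos. In the deGradFP method a GFP-binding nanobody joined to a ubiquitin ligase subunit sends GFP-tagged proteins to the proteasome. The labels do not give the driver of the degrading protein, the number of embryos per library, a batch, or whether replicates were separate collections, so the spread behind the p-values may be technical and is known for these samples only. Contact counts hold no measure of GAF protein, so the depletion itself, and its extent in each library, cannot be checked here; nor do they measure any cell marker that could check the labelled tissue.

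GAF is the product of Trithorax-like. Its zinc finger binds GAGAG repeats in DNA, and GAF molecules join one another by a POZ domain. In the early fly embryo it acts with other factors at promoters and at tethering elements, short DNA sites near promoters and enhancers that contact one another over long distances. Many of these contacts join the promoters of neighbouring paralogous genes, such as patterning genes that are transcribed together.

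Each loop was given by a pair of anchors of 1600 bp. The distance between anchor midpoints ran from 10.4 to 380.4 kb, with a median of 34.8 kb. By the authors' labels, 74 loops joined different genes, 15 joined sites labelled RA and RB of 1 gene (read here as transcript starts of that gene), and 97 had no gene label. These last are called by their names in the authors' list, such as eloop092. The loops shared anchors in part: 33 of them had an anchor in common with another loop, in 13 clusters, and so were not independent of one another. The genome build is not given in the sources used here, and positions are those of the authors' list.

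Contacts summed over all loops were 6618, 7347, 5887 and 5101 in GAF-deGradFP 1 to 4. They were 4512, 6633, 1715 and 6978 in controls 1 to 4. Control 3 was the shallowest library, so that 1 contact in it weighed 3.25 normalised contacts, against 0.77 to 1.21 in the other libraries. To normalise, contacts were scaled to the mean effective size of the 8 libraries. GAF-deGradFP 4 stood apart from its group. Its loop profile had a Spearman correlation over loops of 0.73 to 0.77 with the other depleted libraries, whose highest correlations with one another were 0.91 to 0.93, and of 0.70 to 0.75 with the controls. Results are therefore given with and without it. Because libraries were normalised over the loops themselves, each change is relative to the other loops, and a loss shared by all of them would not be seen.

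With all 8 libraries, contacts fell at 4 loops (2.15% of those listed) and rose at 1 (0.538%) after GAF depletion, 2.69% in all, by edgeR at an adjusted p under 0.05. The 4 that fell were those of CG7560 with chrb, of smal with Ddr, of upd2 with upd1, and of the RA and RB sites of TfAP-2. The loop that rose was eloop099. The median log2 fold change over all loops was 0.04, and 85 loops had a value below 0. At an unadjusted p under 0.05 lay 16 loops that were lower (8.6%) and 13 that were higher (6.99%), 15.6% in all. Groups did not overlap at 9 loops in the lower direction (4.84%) and at 11 in the higher (5.91%), 10.8% in all. In simulated counts at this depth the test found 52% of loops lowered by log2 1, 6% of those lowered by log2 0.5, 70% of those raised by log2 1 and 16% of those raised by log2 0.5. The simulation gave all loops and libraries 1 common spread and held no library that stood apart as GAF-deGradFP 4 did. Detection rates in these data may therefore differ. Under that setting, changes of the smaller size were mostly not detectable.

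The loops of the scyl and chrb locus held the loop that fell most. Scylla (scyl) and charybde (chrb) are paralogs of the REDD family, which inhibit TOR signalling and growth. Loops were listed among all pairs of scyl, CG7560 and chrb, on arm 3L. The loop of CG7560 with chrb spanned 58.8 kb (chr3L:11427801-11429400 and chr3L:11486601-11488200). It held 2.59, 7.73, 8.55 and 8.43 normalised contacts in GAF-deGradFP 1 to 4 and 26.6, 28.7, 32.5 and 25.3 in controls 1 to 4. Every depleted library lay far below every control, and GAF-deGradFP 1 was the lowest, with 3 raw contacts against 8 to 10 in the other depleted libraries. Its log2 fold change was -2.01 (SE 0.34, adjusted p = 1.87e-04 by edgeR), and -2.11 without GAF-deGradFP 4 (adjusted p = 3.01e-06).

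The other 2 loops of this locus lay in the same direction; they were called without GAF-deGradFP 4 and not with all 8 libraries. The loop of scyl with CG7560 spanned 180.4 kb (chr3L:11247401-11249000 and chr3L:11427801-11429400). It held 4.31, 2.32, 1.90 and 2.11 normalised contacts in the depleted libraries and 13.3, 5.91, 9.75 and 8.97 in the controls. The groups did not overlap, though these are few contacts: 2 to 5 raw contacts per depleted library and 3 to 11 per control. Its log2 fold change was -1.72 (SE 0.51, adjusted p = 0.0505), and -1.63 without GAF-deGradFP 4 (adjusted p = 0.0459).

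The longest loop of the locus, scyl with chrb, spanned 239.6 kb (chr3L:11247001-11248600 and chr3L:11486601-11488200). It held 4.31, 13.1, 14.3 and 23.2 normalised contacts in GAF-deGradFP 1 to 4 and 16.9, 22.0, 35.7 and 28.6 in controls 1 to 4. GAF-deGradFP 4 lay within the control range, while the other depleted libraries lay below every control. With GAF-deGradFP 4 the log2 fold change was -0.87 (SE 0.34, adjusted p = 0.149) and without it -1.20 (SE 0.32, adjusted p = 0.00924). The loops of this locus share anchors in pairs, so their falls are not independent. With the loop of Myc and CG12535 (log2 -0.51, adjusted p = 0.475), they made up the 4 loops naming growth and TOR genes, whose median log2 fold change was -1.29 against 0.04 for all loops. That list was chosen with earlier results of these data known and mostly holds this locus, so its median is a description only.

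**Figure D1:**
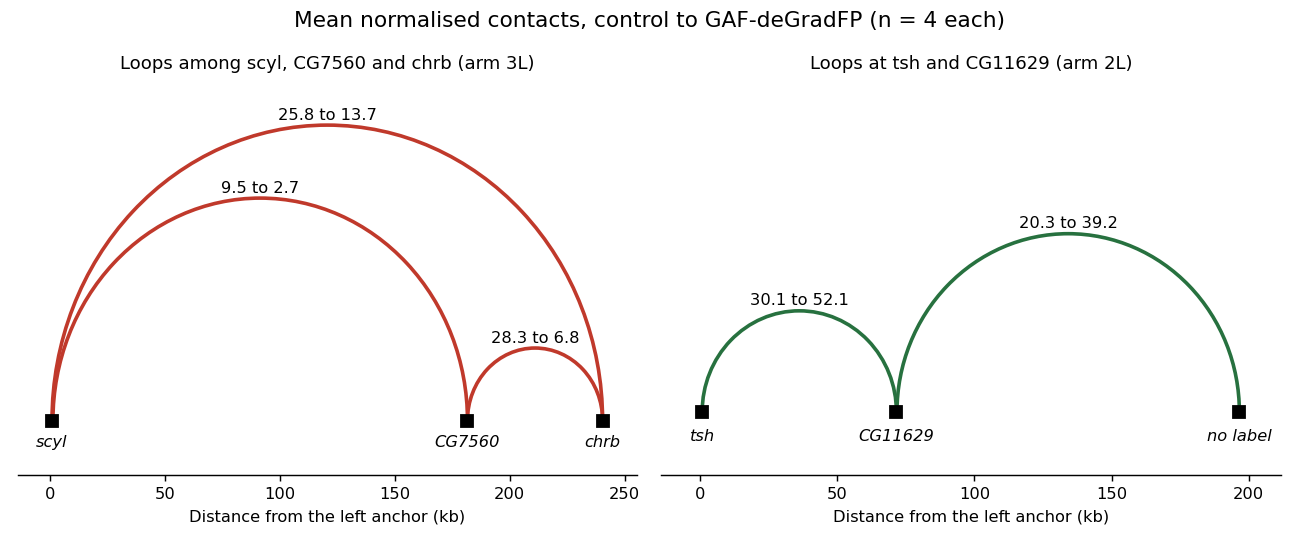
Arcs join the anchors of loops that share anchors at the scyl, CG7560 and chrb locus (left) and at the tsh and CG11629 locus (right), against distance in kb from the leftmost anchor. Numbers are mean normalised contacts in controls and then in GAF-deGradFP (n = 4 each): all 3 loops on the left have lower means after depletion and both on the right have higher means, with the edgeR tests given in the text.

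Among signalling ligands and receptors, 2 of 8 loops fell and none of the 8 rose, where 2.15% of all loops fell and 0.538% rose. The list was chosen with earlier results of these data known, so these counts describe it and test nothing. Smoke alarm (smal) and Discoidin domain receptor (Ddr) are neighbours that encode receptors of the discoidin family, which bind collagen in mammals. Their loop spanned 73.6 kb on arm 2L (chr2L:6178201-6179800 and chr2L:6251801-6253400). It held 3.45, 8.50, 11.4 and 20.0 normalised contacts in the depleted libraries and 27.8, 35.5, 19.5 and 31.8 in the controls. GAF-deGradFP 4 again was the highest of its group and just passed the lowest control. The log2 fold change was -1.52 (SE 0.33, adjusted p = 0.00589) with it and -1.97 (adjusted p = 3.01e-06) without it. The call was lost without GAF-deGradFP 1 (adjusted p = 0.0692), without control 2 (0.105) and without control 4 (0.0501).

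The genes upd1 and upd2 encode cytokines that activate JAK/STAT signalling through the receptor Domeless. Their loop spanned 68.8 kb on the X chromosome (chrX:18243001-18244600 and chrX:18311801-18313400). It held 22.4, 23.2, 17.1 and 24.2 normalised contacts after depletion and 32.6, 59.1, 42.2 and 27.7 in controls. The depleted libraries were close together and all below the controls, which ranged widely, with control 2 the highest. Its log2 fold change was -0.89 (SE 0.25, adjusted p = 0.0477). Calling it depended on single libraries: the adjusted p was 0.121, 0.0647 and 0.139 without GAF-deGradFP 1, 2 and 3, and 0.379 and 0.0556 without controls 2 and 3. It was 0.111 by DESeq2, and the loop was not called with controls 2 and 3 summed as 1 sample.

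The other signalling loops were not called. The FGF genes pyramus (pyr) and thisbe (ths) were joined over 79.6 kb with 73.2, 61.0, 64.6 and 34.8 normalised contacts in the depleted libraries and 45.9, 43.1, 61.7 and 64.5 in the controls. GAF-deGradFP 4 was the lowest library and the other depleted libraries were at the upper end of the range, with a log2 fold change of 0.15 (SE 0.23, adjusted p = 0.821). The loop of the axon guidance genes NetA and NetB, named after its values were seen, had a log2 fold change of -0.62 (adjusted p = 0.395). The loop of roughoid (ru) and rhomboid (rho), which encode intramembrane proteases that release EGF ligands, had 0.38 (SE 0.23, adjusted p = 0.452).

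TfAP-2, an AP-2 family transcription factor that acts in leg and mouthpart development, had, of the 5 called loops, the one with the most control contacts. Its RA and RB sites lie 13.6 kb apart on arm 3L (chr3L:21584201-21585800 and chr3L:21597801-21599400). They held 38.8, 38.6, 39.9 and 41.1 normalised contacts in the depleted libraries and 78.6, 73.5, 74.7 and 53.8 in the controls. The depleted libraries, GAF-deGradFP 4 included, were almost equal, and control 4 was the lowest control. The log2 fold change was -0.81 both with all 8 libraries (SE 0.20, adjusted p = 0.0237) and without GAF-deGradFP 4 (SE 0.19, adjusted p = 0.00243). Leaving out each of the other libraries except control 4 gave an adjusted p between 0.0532 (without GAF-deGradFP 2) and 0.105 (without control 2), while it was 0.0125 without control 4; without GAF-deGradFP 1 or 3 or control 1 or 3 it was 0.0692, 0.0803, 0.0928 and 0.0548.

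No other of the 15 loops within 1 gene was called, and their log2 fold changes ran from -0.81 for TfAP-2 to 1.06 for tlk, a chromatin kinase gene, whose loop held few contacts (adjusted p = 0.171). The loop of CycE, the gene of the S-phase cyclin E, held 32.7, 27.0, 40.9 and 50.6 normalised contacts after depletion against 12.1, 23.7, 26.0 and 24.5 in controls. All depleted libraries were above all controls, yet the log2 fold change of 0.81 missed the threshold (adjusted p = 0.0694). At the eye gene eya, with some of the highest contacts of any loop, values were 82.7, 83.4, 79.8 and 58.0 against 77.4, 77.7, 84.5 and 84.0. All but GAF-deGradFP 4 lay close together, and the log2 fold change was -0.08 (SE 0.20, adjusted p = 0.916). The loops of CycE and tlk were singled out after their values were seen.

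The single call in the higher direction lay next to teashirt (tsh), which encodes a zinc finger factor that patterns the trunk. Eloop099 spans 124.8 kb on arm 2L (chr2L:21898801-21900400 and chr2L:22023601-22025200), and the matching wing disc loop is labelled tio, for the teashirt paralog tiptop. It held 40.5, 37.1, 36.1 and 43.2 normalised contacts after depletion and 25.4, 16.9, 16.2 and 22.8 in controls. Here the groups did not overlap and GAF-deGradFP 4 was the highest of all libraries. Its log2 fold change was 0.90 (SE 0.23, adjusted p = 0.0237), and 0.86 (adjusted p = 0.0102) without GAF-deGradFP 4. Without GAF-deGradFP 1, 2 or 3 the adjusted p was 0.0692, 0.0532 and 0.0732, and without control 2, 3 or 4 it was 0.151, 0.0551 and 0.0501. By DESeq2 it was 0.111.

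The loop of tsh with CG11629 spans 70.8 kb (chr2L:21827801-21829400 and chr2L:21898601-21900200) and shares its right anchor with eloop099. It held 62.9, 47.9, 52.3 and 45.3 normalised contacts after depletion and 30.2, 35.5, 22.7 and 31.8 in controls. The groups again did not overlap. Its log2 fold change of 0.73 (SE 0.21) had an adjusted p of 0.0505 with all libraries and, at 0.78, of 0.00689 without GAF-deGradFP 4. It was the only other loop of its anchor cluster, so the 2 values share sites.

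Leaving out GAF-deGradFP 4 raised the counts to 12 loops that fell (6.45%) and 4 that rose (2.15%), 8.6% in all. The 5 loops called with 8 libraries were among these 16. The spread between replicates of a group, as edgeR's biological coefficient of variation, was 17.7% with this library and 11.6% without it. The loops without overlap between groups numbered 22 lower (11.8%) and 15 higher (8.06%), 19.9% in all. Leaving out a library could only add to these loops, since the same normalised contacts were used, so their increase is not a result. At an unadjusted p under 0.05 lay 24 lower (12.9%) and 23 higher (12.4%), 25.3% in all.

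**Figure D2:**
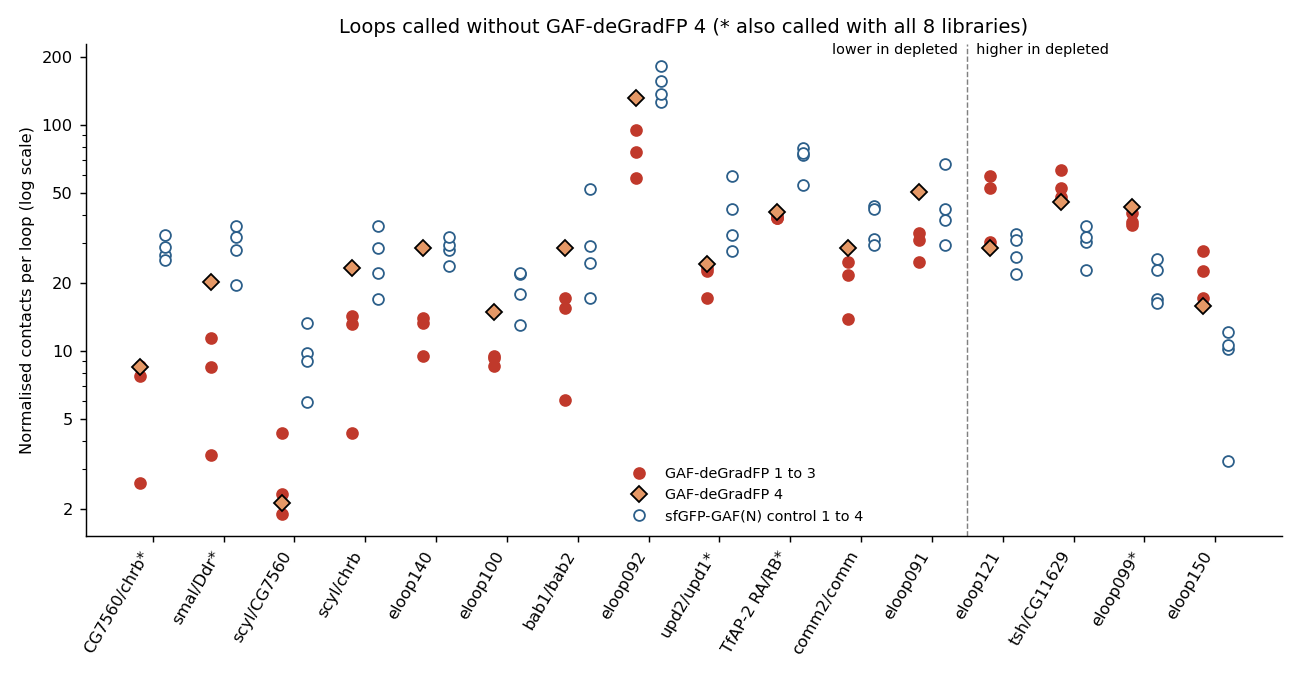
Normalised contacts (log scale) in every library for the 16 loops called without GAF-deGradFP 4, with GAF-deGradFP 1 to 3 as filled circles, GAF-deGradFP 4 as diamonds and controls as open circles; loops left of the dashed line are lower after depletion. GAF-deGradFP 4 lies above the other depleted libraries at 10 of the 12 loops that fell and within the control range at 7 of them. Over all loops it lies above the other depleted libraries at 67 and below them at 74. The loops that fell were picked by low values in GAF-deGradFP 1 to 3. A left-out library tends to lie higher at such loops, so these counts cannot show that GAF-deGradFP 4 was depleted less.

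Eloop092, the loop with the most control contacts of all, was among those that fell in the 7-library comparison. It spans 52.8 kb on arm 2L (chr2L:1764401-1766000 and chr2L:1817201-1818800) and carries no gene label. Its normalised contacts were 75.8, 57.9, 95.0 and 131 in GAF-deGradFP 1 to 4 and 126, 136, 156 and 181 in controls 1 to 4. The first 3 depleted libraries lay below every control and GAF-deGradFP 4 passed control 1. The log2 fold change was -0.98 (SE 0.17, adjusted p = 4.74e-06) without GAF-deGradFP 4 and -0.75 (SE 0.23, adjusted p = 0.0546) with it.

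The neighbours bab1 and bab2 encode BTB-domain transcription factors that pattern the limbs. Their loop of 75.2 kb on arm 3L held 6.03, 15.5, 17.1 and 28.5 normalised contacts after depletion and 29.0, 24.5, 52.0 and 17.1 in controls. GAF-deGradFP 4 lay among the controls, and GAF-deGradFP 3 came within 0.1 of control 4. The log2 fold change was -1.03 (SE 0.31, adjusted p = 0.0239) without GAF-deGradFP 4 and -0.71 (SE 0.34, adjusted p = 0.311) with it.

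Commissureless (comm) and its paralog comm2 act in axon guidance at the midline, where comm keeps the receptor Robo from the surface. Their loop of 29.2 kb on arm 3L held 13.8, 21.6, 24.7 and 28.5 normalised contacts after depletion and 43.5, 31.3, 42.2 and 29.4 in controls. Every depleted library was below every control, though GAF-deGradFP 4 was within 1 of control 4. The log2 fold change was -0.80 (SE 0.25, adjusted p = 0.0249) without GAF-deGradFP 4 and -0.68 (SE 0.25, adjusted p = 0.139) with it.

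The unlabelled loops eloop140, eloop100 and eloop091 also fell in the 7-library comparison. Eloop140, of 12.8 kb on the X chromosome, held 9.48, 13.9, 13.3 and 28.5 normalised contacts against 27.8, 23.7, 29.2 and 31.8 (log2 -1.18, adjusted p = 0.00354, and -0.81, adjusted p = 0.138, with all libraries). Eloop100, of 48.0 kb on arm 3L, held 9.48, 9.27, 8.55 and 14.8 against 21.8, 17.7, 13.0 and 22.0 (log2 -1.09, adjusted p = 0.0239, and -0.90, adjusted p = 0.134). At both, GAF-deGradFP 4 alone reached the control range. Eloop091, of 42.8 kb on the X chromosome, had the smallest fall, with groups that overlapped even without GAF-deGradFP 4 (log2 -0.68, adjusted p = 0.0338, and -0.44, adjusted p = 0.439, with all libraries).

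Besides eloop099 and the loop of tsh with CG11629, 2 unlabelled loops rose in the 7-library comparison. Eloop150, of 21.2 kb on arm 3L, held 27.6, 22.4, 17.1 and 15.8 normalised contacts after depletion against 12.1, 10.1, 3.25 and 10.6 in controls, where the lowest value is 1 raw contact of control 3. All depleted libraries were above all controls. Its log2 fold change was 1.15 (SE 0.32, adjusted p = 0.0117), and 1.05 (adjusted p = 0.0691) with all libraries. Eloop121, of 28.0 kb on arm 3R, held 59.5, 52.5, 30.4 and 28.5 against 21.8, 33.0, 26.0 and 31.0. Only the first 2 depleted libraries cleared the controls there, and the log2 fold change was 0.73 (adjusted p = 0.0229), and 0.59 (adjusted p = 0.179) with all libraries.

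GAF-deGradFP 4 did not differ from its group in 1 direction. Against the mean of the other depleted libraries, it was over 2-fold higher at 12 loops and over 2-fold lower at 9, with 2 added to both values. The other depleted libraries, each taken against the rest of its group, were higher at 0 to 1 loops and lower at 4 to 7. Among the controls, the shallow control 3 was higher at 4 loops and lower at 16, and the others were higher at 0 to 4 and lower at 3 to 5. Loops with many contacts were among the low values of GAF-deGradFP 4. The loop of the gap gene knirps (kni) with its paralog knrl held 95.6, 104 and 82.7 normalised contacts in GAF-deGradFP 1 to 3 and 27.4 in GAF-deGradFP 4, below all controls (58.0 to 97.5). The loop of the T-box genes H15 and midline (mid) held 91.3, 74.2 and 79.8 and then 36.9, and that of the homeobox genes B-H2 and B-H1 held 57.7, 51.8 and 37.1 and then 15.8. In the other direction, the loop within kismet (kis), a chromatin remodeller gene, held 12.9, 5.41 and 7.60 and then 33.7, above all controls (6.50 to 10.6). At the loops of kis and B-H2 with B-H1 the library is described after its values were seen.

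**Figure D3:**
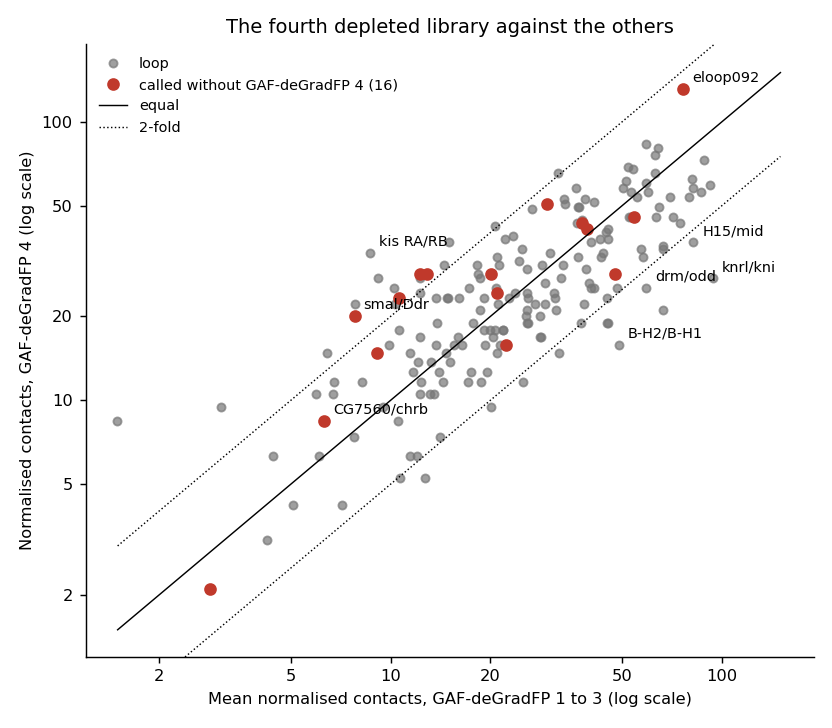
Each point is a loop, with its mean normalised contacts in GAF-deGradFP 1 to 3 on the horizontal axis and its value in GAF-deGradFP 4 on the vertical axis, both log scales. The solid line marks equal values and the dotted lines a 2-fold difference: knrl/kni, B-H2/B-H1 and H15/mid fall below, and kis RA/RB and smal/Ddr above; filled red points are the 16 loops called without this library.

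Of the 24 loops that join listed paralog pairs, 2 fell with all libraries (smal with Ddr, upd2 with upd1) and 4 without GAF-deGradFP 4, where scyl with chrb and bab1 with bab2 joined them; none of the 24 rose. Of all loops, 2.15% and 6.45% fell in these comparisons, and the list was chosen with earlier results of these data known. The list does not hold the paralogs comm2 and comm, whose loop fell without GAF-deGradFP 4. The median log2 fold change of the 24 listed loops was -0.01, against 0.04 for all loops, and 0.07 against 0.03 without GAF-deGradFP 4. None of the following paralog loops with many contacts was called in these comparisons. That of H15 with mid had a log2 fold change of 0.03 (SE 0.25, adjusted p = 0.95), and 0.22 without GAF-deGradFP 4 (adjusted p = 0.497). The loop of knrl with kni had 0.11 (SE 0.26, adjusted p = 0.916), and 0.39 without GAF-deGradFP 4 (adjusted p = 0.133). The proneural genes achaete (ac) and scute (sc) had -0.29 (SE 0.22, adjusted p = 0.552), and the homeobox genes unc-4 and OdsH, which were not on the list, had 0.23 (SE 0.21, adjusted p = 0.63). The loop of disco with disco-r, named after its values were seen, had -0.50 (adjusted p = 0.199). With GAF-deGradFP 4 and control 4 both left out, an alternative chosen after the data were seen, the loops of H15 with mid and knrl with kni were called higher (edgeR adjusted p = 0.0204 and 0.0272).

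The 9 loops naming gap, pair-rule or segment polarity genes had 0 calls in either comparison, with 1 higher and 0 lower at an unadjusted p under 0.05 by edgeR, and a median log2 fold change of 0.11. Of all loops, 2.69% were called with 8 libraries and 8.6% without GAF-deGradFP 4, so 0 of 9 is near that background. DESeq2 called none of these 9 either, while leaving out both GAF-deGradFP 4 and control 4 called 2 of them higher, knrl with kni (adjusted p = 0.0272) and slp1 with slp2 (0.0432). The loop of the segment polarity genes invected (inv) and engrailed (en) held 54.3, 75.7, 61.8 and 80.1 normalised contacts after depletion and 54.4, 51.5, 55.2 and 53.0 in controls. The controls were tightly grouped and 3 depleted libraries exceeded them, with a log2 fold change of 0.35 (SE 0.20, adjusted p = 0.452). The loop of the pair-rule genes sloppy paired 1 and 2 (slp1 and slp2) had the highest value of this list, 0.59 (unadjusted p = 0.0115, adjusted p = 0.139). The loops of odd-skipped (odd) with its paralogs drm and sob, which share anchors, had -0.09 for drm with odd, -0.46 for drm with sob and -0.05 for sob with odd, with adjusted p from 0.552 to 0.95. Loops of hunchback (hb) with CG33325 and of caudal (cad) with Pomp had -0.05 and 0.34 (adjusted p = 0.923 and 0.475). The loops of slp1 with slp2, drm with sob, sob with odd, hb and cad are members of the list that were named after their values were seen.

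The 5 loops naming dorsoventral or mesoderm genes also had 0 calls in either comparison, with none at an unadjusted p under 0.05 by edgeR and none called by DESeq2, and a median of 0.22. With 2.69% and 8.6% of all loops called, 0 of 5 is likewise near the background. Of these, 3 join the Dorsocross T-box genes, which act in the amnioserosa and heart, and share anchors. Doc2 with Doc1 held 74.1, 68.8, 65.6 and 53.8 normalised contacts after depletion and 48.4, 61.7, 52.0 and 60.4 in controls. The first 3 depleted libraries exceeded every control, and the log2 fold change was 0.22 (SE 0.20, adjusted p = 0.621). Doc3 with Doc1 and Doc3 with Doc2 had 0.25 and 0.03 (adjusted p = 0.708 and 0.95). No loop carried a homeotic gene of the list used as its label in the embryo list. By the labels of the matching disc loops, though, eloop094 lies at Scr, and eloop106 and eloop151 lie at Antp, homeotic genes of the head and thorax; these were looked up after the values were seen. Eloop094, of 44.4 kb on arm 3R, held 74.1, 68.0, 81.7 and 43.2 normalised contacts after depletion and 52.0, 58.3, 74.7 and 77.5 in controls. The groups overlapped, with GAF-deGradFP 4 the lowest library, and the log2 fold change was 0.05 (SE 0.22, adjusted p = 0.923). Eloop106 and eloop151 had 0.31 and -0.11 (adjusted p = 0.558 and 0.923).

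Calls were next counted by the distance between anchors. Of the 5 loops called with 8 libraries, TfAP-2 lies under 20 kb, 3 lie at 40 to 80 kb (CG7560 with chrb, smal with Ddr, upd2 with upd1) and eloop099 lies beyond 80 kb. Without GAF-deGradFP 4, the loops of 40 to 80 kb had 7 falls and 1 rise among 53. Those of under 20 kb had 2 falls and 0 rises among 39, those of 20 to 40 kb 1 fall and 2 rises among 71, and those of 80 kb and over 2 falls and 1 rise among 23. The shares of all loops that fell and rose in this comparison were 6.45% and 2.15%. Over all loops, the Spearman correlation of log2 fold change with distance was -0.10, and -0.06 without GAF-deGradFP 4; loops share libraries and in part anchors, so no test is given.

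**Figure D4:**
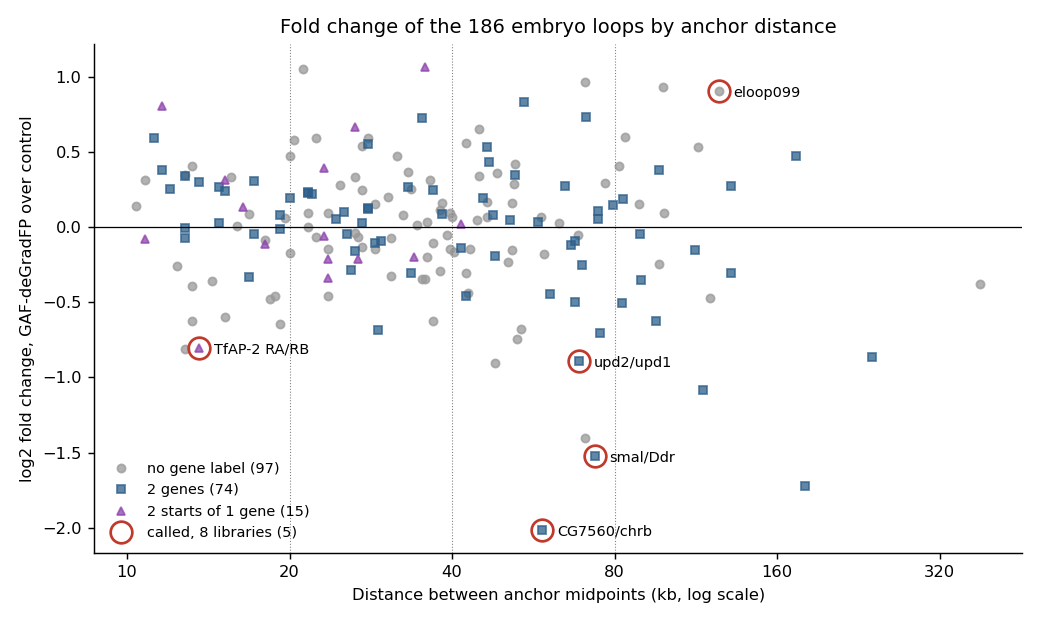
Log2 fold change (GAF-deGradFP over control, 8 libraries) of each loop against the distance between its anchor midpoints in kb (log scale), with symbols for the gene label. Dotted lines mark the class limits of 20, 40 and 80 kb, and rings mark the 5 called loops, of which 3 lie at 40 to 80 kb.

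Taken as a share of each library's loop contacts, loops of 40 to 80 kb had less after depletion. They held 26.2%, 26.0%, 26.3% and 25.3% of contacts in GAF-deGradFP 1 to 4 and 27.2%, 27.1%, 29.0% and 28.3% in controls 1 to 4. The groups did not overlap. Their means were 26.0% ± 0.48 and 27.9% ± 0.91 (SD, n = 4 each), and the exact two-sided permutation test gave p = 0.0286, the smallest that 4 against 4 libraries allow. Adjusted over the 4 distance classes it was 0.114, so the difference did not pass. It was -1.94 percentage points with all loops and -1.18 without eloop092 (exact permutation p = 0.0286). Without the 5 called loops it was -1.26 (exact permutation p = 0.114). Eloop092 and the called loops were singled out with their values in these libraries known, so the smaller differences without them are not a result. With every loop weighted equally, the groups overlapped in this class (exact permutation p = 0.286).

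Loops of 20 to 40 kb held 34.9% ± 0.71 of contacts after depletion and 33.5% ± 0.86 in controls (exact permutation p = 0.0857, adjusted 0.171). Loops of under 20 kb held 29.8% ± 0.22 and 29.4% ± 0.57 (p = 0.314 in the same exact test), and loops of 80 kb and over held 9.31% ± 0.48 and 9.15% ± 0.71 (p = 0.714, exact). In these 3 classes the libraries of the groups overlapped. When classes were instead cut at the quartiles of distance, the groups separated in the quartile of the shortest loops (up to 21.6 kb), which held 1.27 percentage points more after depletion (exact permutation p = 0.0286, adjusted 0.114). The separated class thus depended on where the limits were set.

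**Figure D5:**
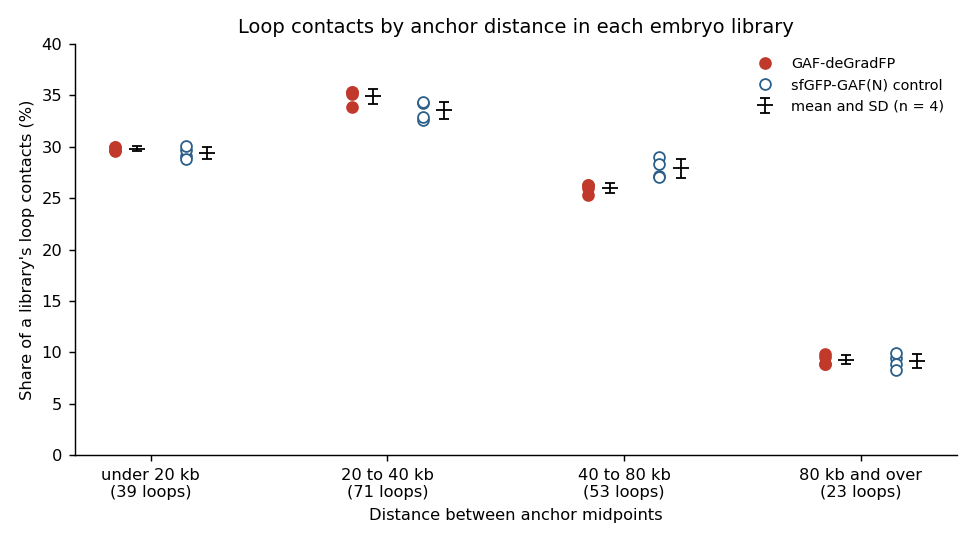
Percent of each library's loop contacts that fell in loops of 4 distance classes, with 1 point per library and the mean and SD (n = 4) beside each group. At 40 to 80 kb the depleted libraries lie at 25.3% to 26.3% and the controls at 27.1% to 29.0%; in the other classes the groups overlap.

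By gene label, loops joining different genes held 3 of the 4 falls, and the RA and RB loops held the other. Without GAF-deGradFP 4 the falls were 7 among 74 loops joining different genes, 1 among 15 within a gene and 4 among 97 without label, and the rises were 1, 0 and 3. In that comparison 6.45% of all loops fell and 2.15% rose. Median log2 fold changes were 0.05, -0.06 and 0.05 with all libraries. Labelled loops took 52.6% ± 0.73 of contacts after depletion and 52.1% ± 0.70 in controls (SD, n = 4 each), with overlapping groups and an exact permutation p of 0.371. A difference by label was not detectable in these shares.

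By chromosome arm, 3L held CG7560 with chrb and TfAP-2, and without GAF-deGradFP 4 it held 7 falls and 1 rise among 36 loops. These 7 comprise the 3 loops of the scyl and chrb locus, TfAP-2, bab1 with bab2, comm2 with comm, and eloop100. The loops of the scyl and chrb locus share anchors, and of all loops 6.45% fell and 2.15% rose in this comparison. The X chromosome had 3 falls and 0 rises among 49 loops, 2L had 2 and 2 among 44, 3R had 0 and 1 among 35, and 2R had 0 and 0 among 22. On 2R the loop nearest the threshold was eloop114, of 70.4 kb, with 2.59, 5.41, 4.75 and 3.16 normalised contacts after depletion and 15.7, 11.0, 9.75 and 7.34 in controls. Its groups did not overlap and its log2 fold change was -1.40 (SE 0.45, adjusted p = 0.0694). With all 8 libraries no difference in the arms' shares of contacts was detectable. Arm 3L held 19.8% ± 0.38 after depletion and 20.6% ± 1.19 in controls (SD, n = 4 each, exact permutation p = 0.257). The exact p of the arms ran from 0.114 for 3R to 0.714 for X. Without GAF-deGradFP 4 the groups separated on 3R, with 23.1%, 23.5% and 22.9% against 21.7%, 22.1%, 21.7% and 22.7% in controls. The exact permutation p was 0.0571, the smallest that 3 against 4 libraries allow, and 0.286 adjusted, so this did not pass.

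Several loops with many contacts were not called. Eloop090, at 380.4 kb on arm 3R the longest of the list, held 47.4, 45.6, 83.6 and 83.3 normalised contacts after depletion and 71.3, 67.6, 110 and 94.6 in controls. Its libraries overlapped between groups, with a log2 fold change of -0.38 (SE 0.23, adjusted p = 0.452), and of -0.50 without GAF-deGradFP 4 (adjusted p = 0.0673). Eloop184, of 14.4 kb on 2L, held 56.9, 58.7, 61.8 and 60.1 against 77.4, 89.6, 74.7 and 62.0. Every depleted library was below every control, yet the log2 fold change of -0.36 (SE 0.20) had an adjusted p of 0.439. The loop of KP78a with prospero (pros), a homeobox gene of the nervous system, had -0.01 (SE 0.21, adjusted p = 0.973), and the shortest loop, eloop164 of 10.4 kb, had 0.14 (SE 0.20, adjusted p = 0.818).

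Wing disc loops offered a separate set of libraries, from discs of larvae with Halo-tagged GAF of full length (Halo-Trl) or lacking the POZ domain (delta-POZ), n = 2 each. The disc fit held 6 libraries, since 2 of another genotype, labelled delta-Q, were fitted with them. The delta-Q libraries entered the scaling, the filter and the spread behind the disc p-values, and their contrast is not given here. The tables were normalised apart and differ in tissue, allele and anchor size, so values stand side by side with no test between them. In the discs, line and deletion cannot be told apart. Of the embryo loops, 61 had a disc loop with both anchors within 5 kb. Of the 16 loops called without GAF-deGradFP 4, 7 were matched, 5 of them lower after depletion. Of these, 4 were also called lower in delta-POZ: CG7560 with chrb (log2 -1.55), scyl with chrb (-1.25), smal with Ddr (-1.16) and bab1 with bab2 (-1.04), each with an edgeR adjusted p of at most 1.83e-05. In delta-POZ, 9 of 209 disc loops (4.31%) were called lower, and 5 of the 61 matched loops, the only ones that could be counted here. The first 2 of the loops named share the chrb anchor and are not independent. By edgeR with GAF-deGradFP 4 included, scyl with chrb and bab1 with bab2 were not called in embryos. The remaining matched loop that fell in embryos, comm2 with comm, had -0.29 in delta-POZ (adjusted p = 0.619).

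Neither matched loop that rose in embryos was called in delta-POZ. Of all 209 disc loops, 0 were called higher there, so the lack of a called rise equals the background. The tsh loop held 72.5 and 99.7 normalised contacts in Halo-Trl and 43.4 and 70.5 in delta-POZ (log2 -0.58, adjusted p = 0.107 by edgeR). The disc loop labelled tio, at the place of eloop099, held 129 and 168 in Halo-Trl and 126 and 134 in delta-POZ (log2 -0.19, adjusted p = 0.75). Among matched loops called lower in delta-POZ, only eloop120, labelled CG14372 in discs, was called in neither embryo comparison. It was named for its disc call, after its values were seen, and had log2 -0.73 (edgeR adjusted p = 2.76e-04) in discs. In embryos it had 0.15 (adjusted p = 0.867) with all 8 libraries and 0.09 (adjusted p = 0.875) without GAF-deGradFP 4. The authors' deposited table of the embryo comparison calls 3 loops lower (1.61%) and 0 higher.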

How the data were processed

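Embryo contacts were deposited by the authors as raw counts of contacts per loop. The submitters' processing notes name BWA, bedtools and DESeq2; no source used here gives their versions, the contact assay or the genome build. Per the labels' protocols, embryos received formaldehyde and afterwards DSG and EGS. Columns named GAF_KO were read as GAF-deGradFP, those named GFP_GAF as sfGFP-GAF(N) control, and disc columns named wt as Halo-Trl, the genotype without columns of its own. The 6 cells given as NA (5 in control 3), at 5 loops, were read as 0. The authors' deposited table of comparisons holds, per the file headers, a mean and a statistic (scores), a log2 fold change with its error, and p-values before and after adjustment.

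The test was edgeR's quasi-likelihood F test (edgeR 4.0.16, R 4.3.3; TMM, at least 10 contacts summed over libraries, genotype as the only term) with p-values adjusted by Benjamini-Hochberg over all 186 loops, or 209 for discs; loops under 0.05 were called. The printed SE is the size of the log2 fold change over the root of the F statistic. It was tested on simulated data. DESeq2 1.42.0, limma 3.58.1 (voom), other scalings, filters and thresholds, a replicate block and leaving out libraries were the alternatives. Shares were compared by exact two-sided permutation over libraries, adjusted within each family (4 distance classes, 5 arms). Controls 2 and 3 differed by no more than counting noise (chi-square p = 0.403; other control pairs 0.0442 or below); they hold different totals and were kept as 2 samples, and summing them is among the alternatives. Loops named are the called ones, the 10 with the most control contacts, up to 4 per gene list, the 3 longest and 3 shortest, and the smallest p per arm; others are marked. The members and lists were chosen with earlier results of these data known. Of 153 gene labels, 151 matched a RefSeq gene table (Release 6 plus ISO1 MT), case ignored.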

Additional observations from a re-analysis of the deposited data

Results flagged for a closer look

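Of 100 groups of 4 libraries examined, 5 held a library whose gap to the nearest other exceeded Dixon's limit for the group's range, where chance gives about 1 in 20. At the loop of CG7560 with chrb, GAF-deGradFP 1 was lowest, with 2.585 normalised contacts against 7.73 to 8.55 in the other depleted libraries. At eya, GAF-deGradFP 4 was lowest, with 57.986 against 79.8 to 83.4. At eloop100, GAF-deGradFP 4 was highest, with 14.76 against 8.55 to 9.48. At eloop113, of 10.8 kb on arm 3R, control 4 was highest, with 76.692 against 49.0 to 53.2; the loop's log2 fold change was 0.32 (edgeR adjusted p = 0.483). In the share of loops of 20 to 40 kb, GAF-deGradFP 3 was lowest, with 33.854% against 35.1% to 35.4%.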

How the results depend on the processing

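The loop of CG7560 with chrb was called in each of 22 alternatives (edgeR, DESeq2 or limma adjusted p up to 0.00634), smal with Ddr in 19, TfAP-2 in 15, eloop099 in 14 and upd2 with upd1 in 12. Against 4 falls and 1 rise, limma voom with sample quality weights gave 8 and 2, DESeq2 3 and 0, a distance trend as offset 3 and 2, total contacts as library size 4 and 2, a minimum of 10 contacts per library on average 4 and 2, leaving out loops with an NA cell 5 and 2, and an adjusted p under 0.1 gave 7 and 4. Leaving out GAF-deGradFP 4 gave 12 falls and 4 rises. Leaving out any other single library gave 1 to 3 falls and 0 to 1 rises. Chosen after the data were seen, GAF-deGradFP 4 left out with the distance offset gave 12 and 4, of which 15 calls were shared with its plain omission. GAF-deGradFP 4 and control 4 left out gave 14 and 13, with 13 shared. With controls 2 and 3 summed, 4 fell and 1 rose, scyl with CG7560 being called and upd2 with upd1 not. A replicate block gave 3 falls and 0 rises (CG7560 with chrb, smal with Ddr, eloop092). Same-numbered libraries correlated at -0.10 to 0.18 and 1 of 4 correlated best with its own. These few values cannot show whether same-numbered libraries were prepared together, which the labels do not give. Over 37 named loops, 812 values under alternatives held 50 that gained and 28 that lost a call and 0 reversed calls; 32 changed sign while uncalled. Share differences have no test of stability here: 4 against 3 libraries cannot give an exact permutation p below 0.0571, and with 4 against 4 a single separated distance class adjusts to 0.114. Disc falls ranged from 7 to 9. Control 3 held 1715 contacts, and without it 2 loops fell and 0 rose. The causes were not tested.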
